A study of Mus musculus with 2 samples.

Results

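Dense chains of accessible regions in early thymic progenitors were examined in 2 peak lists made by ATAC-seq, an assay in which a transposase inserts sequencing adapters where DNA is accessible. The chains were chosen by a rule on the wild-type list alone: neighbouring autosomal peaks were joined where the gap between their edges was 12.5 kb or less, and chains with 8 or more wild-type peaks were kept. The rule gave 999 dense chains with 10406 peaks, of 37937 chains with 83675 peaks on the 19 autosomes. They held 12.4% of the autosomal wild-type peaks. Chains of 1 to 3 peaks, called sparse here and used for comparison, numbered 32052 and held 49191 peaks. The other 4886 chains had 4 to 7 peaks.

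Both libraries came from sorted early thymic progenitors of the mouse fetal thymus, gated as CD4-, CD8- and lineage-negative, CD44+, CD25- and Kit+. The control library was from wild-type C57BL/6 animals. The other was from E2Afl/flHEBfl/flIL7RCre animals, the double knockout, whose cells were also gated as YFP+. That gate was not part of the wild-type sort, so gate and genotype cannot be told apart. The same holds for sex of the animals, since the wild-type list had 10 Y chromosome peaks and the double-knockout list 0. Deletion by IL7R-Cre is limited to cells in which the driver has been active and to their descendants, and loss of E2A and HEB was not checked here. Each genotype had 1 library, so no difference has a replicate check and no test between genotypes was made. Intervals are 95% intervals that cover counting error only. They treat peaks as independent, which neighbours in a chain are not.

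Accessible regions mark promoters, enhancers and other regulatory DNA, and they are spread unevenly along chromosomes. Enhancers that lie close together are often joined across short gaps and treated as 1 domain, because genes that define a cell type commonly lie beside several of them. The proteins E2A and HEB belong to the E proteins, helix-loop-helix regulators that recognise E-box sequences in many enhancers, and both act early in T cell development. Peaks alone do not tell an enhancer from a promoter, so the chains are described only as runs of accessible regions. Positions are of the mm9 build. The gene table and sequences at hand belong to another build and were not used here, so chains are named by position and carry no gene annotation.

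The deposited lists held 85764 wild-type and 69896 double-knockout peaks, nearly all 151 bp wide. The depth behind them is unknown. The score deposited with each peak has no stated unit and was used only within its own list. Where scores of both lists are printed side by side, their sizes cannot be compared. On the autosomes there were 0.815 double-knockout peaks per wild-type peak. A difference in list length could come from depth, from peak calling or from the genotype, and these cannot be told apart.

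The dense chains were mostly modest in size. They had 8 to 31 wild-type peaks with a median of 9, and 317 of the 999 had exactly 8. Their lengths ran from 19.5 to 192 kb with a median of 49.1 kb, and together they covered 53.6 Mb. Neighbouring peaks within a chain lay a median of 5.53 kb apart, with quartiles of 2.48 and 8.22 kb. The summed score ran from 35.05 to 742, with a median of 125 and quartiles of 91.2 and 171. Dense chains held 13.4% of the summed autosomal score and sparse chains 57.5%. One strong peak did not make up most of a typical chain: the strongest peak held a median of 23.2% of its chain's summed score, although this ranged from 7.39 to 59.5%. Number, length, spacing and score all come from the list that chose the chains and are given as descriptions.

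The limit of 8 peaks fell on a continuous slope. Just outside it were 538 chains of 7 peaks, with a median length of 34.6 kb and a median peak score of 8.87. Just inside were 317 chains of 8 peaks, with a median length of 40.3 kb and a median peak score of 9.37. Of the peaks in chains of 7, 64.1% overlapped a double-knockout peak, and of those in chains of 8, 63.4% did. The gap limit acted in a similar way. In 696 dense chains (69.7%) at least 1 gap was longer than 10 kb, and 387 (38.7%) had another chain within 15 kb of an end. Of these neighbours, 18 pairs were both dense. The closest pair, at chr13:40938904-40982895 and chr13:40995451-41019686, was separated by 12555 bp.

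The largest chain by both peak number and length was chr14:122297817-122489857. It held 31 wild-type peaks and 34 double-knockout peaks over 192 kb. Of its wild-type peaks 21 overlapped a double-knockout peak, while 10 were in the wild-type list only and 13 were in the double-knockout list only. Its total thus hid many peaks that were found in 1 list: 67.7% of the wild-type peaks were shared. The unshared ones were not its weakest peaks, since their median wild-type score of 12.55 was close to the 11.5 of the shared ones. The strongest peak found only in the double knockout, chr14:122387015-122387165, ranked at percentile 90.1 of its own list. In the double-knockout list the peaks of this stretch fell into 3 separate chains under the same gap limit.

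The highest summed score, 742, belonged to chr13:23580678-23690091. It held 26 wild-type peaks in 109 kb with scores from 7.34 to 66.5, and 29 double-knockout peaks with scores from 3.82 to 57.8. In both lists the stretch was 1 unbroken chain, and 80.8% of the wild-type peaks were shared. Some of the unshared ones were immediate neighbours. The strongest peak found only in the wild type, chr13:23677700-23677850, with a score of 34.9, ended directly before the strongest peak found only in the double knockout, chr13:23677851-23678001, with a score of 35.9. They ranked at percentiles 93.4 and 90.6 of their own lists. Nearly all peaks have the same width, so marked positions that lie a full peak width or more apart count as unshared in both lists.

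The remaining chains among the 10 with most wild-type peaks had fewer double-knockout than wild-type peaks. The chain at chr10:80892381-81043725 had 28 wild-type and 25 double-knockout peaks and the second highest summed score, 530. At chr8:97381357-97525835 there were 27 and 22, and its strongest wild-type peak, chr8:97509225-97509375, with a score of 26.1, had no overlapping double-knockout peak but lay beside an unshared one, chr8:97508980-97509130, with a score of 17.7. The numbers were 25 and 20 at chr4:46540385-46689153, against 25 and 24 at chr2:6243668-6404944. Both of these had 64.0% of wild-type peaks shared, but the second had 8 peaks found only in the double knockout and the first had 4. The last 4 chains had 23 wild-type peaks each, with 16 to 19 in the double knockout. Among them chr2:103387397-103543764 was the most broken up, with 16 double-knockout peaks in 5 separate chains and 56.5% of wild-type peaks shared. The others were chr4:151460851-151588458 with 60.9% shared, and chr6:82977294-83092440 and chr6:97367096-97488835, each with 69.6%.

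Chains with fewer peaks also reached high summed scores. At chr8:73315371-73429968 both lists had 19 peaks and the summed wild-type score was 458. At chr7:13483010-13577883 both had 15 and the sum was 447. Both remained 1 chain in the double-knockout list, with 78.9% and 80.0% of wild-type peaks shared. The highest single score of any dense chain, 105.1, was in chr7:17460556-17536898, a chain of 15 wild-type and 16 double-knockout peaks that was singled out after its values were seen.

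**Figure D1:**
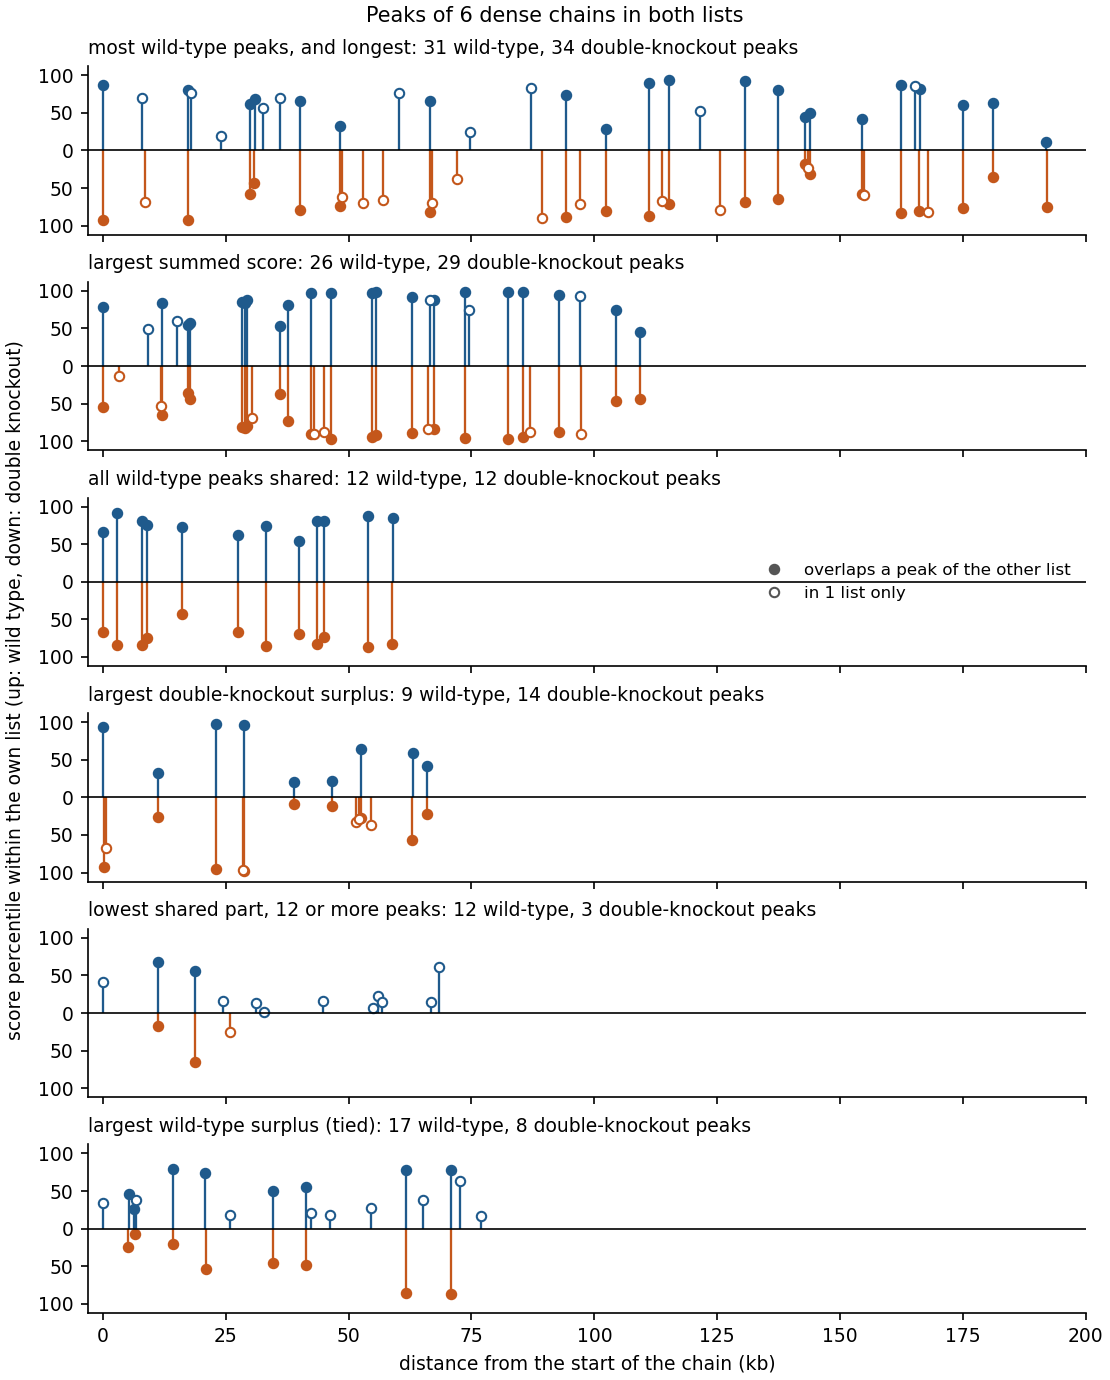
Peaks of 6 dense chains, placed by distance from the chain's first base (kb), with the score percentile of each peak in its own list (wild type upward in blue, double knockout downward in orange). Filled circles overlap a peak of the other list and open circles do not: the chain of 31 wild-type peaks carries open circles along its whole length in both directions, while the chain with 12 peaks in each list has none.

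Most dense chains had fewer peaks in the double knockout. Inside the 999 stretches there were 8274 double-knockout peaks, counted by their centre, or 0.795 per wild-type peak (0.772 to 0.818). That is 19.4 wild-type and 15.4 double-knockout peaks per 100 kb. Dense stretches held 12.1% of the autosomal double-knockout peaks, against 12.4% of the wild-type ones. The double-knockout number ran from 0 to 34 with a median of 8, and the difference per chain, double knockout minus wild type, ran from -9 to 5 with a median of -2. In 795 chains (79.6%) it was below 0, in 125 (12.5%) it was 0 and in 79 (7.91%) it was above 0. Over all 18785 chains of 2 or more wild-type peaks, 65.2% had fewer double-knockout peaks, 30.4% as many and 4.38% more. Ties are more common in chains of few peaks, and a choice for many wild-type peaks by itself favours a lower number in any second list.

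The same counts were therefore made the other way round, with chains chosen on the double-knockout list. That list gave 715 dense chains with 7227 peaks. Of these, 473 (66.2%) had fewer wild-type than double-knockout peaks inside and 116 (16.2%) had more. The numbers thus leaned toward whichever list had chosen the chains. Wild-type peaks inside came to 0.875 per double-knockout peak, while over all autosomes there were 1.23. Of the 715, 449 (62.8%) had 8 or more wild-type peaks inside, and of the 999 wild-type dense chains 530 (53.1%, 49.9 to 56.2%) had 8 or more double-knockout peaks.

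**Figure D2:**
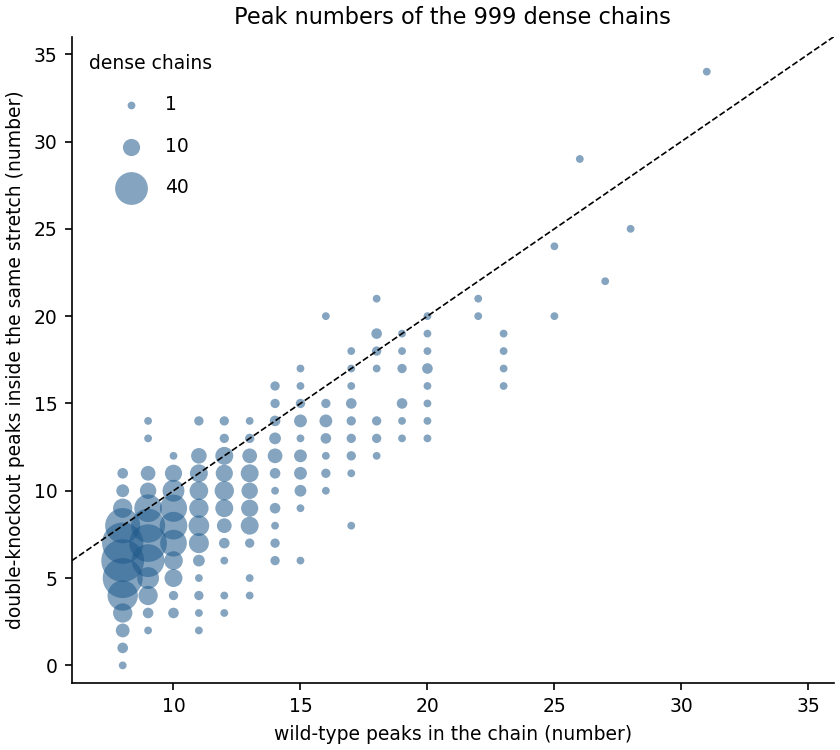
Number of double-knockout peaks inside each stretch against the number of wild-type peaks, for the 999 dense chains. The circle area gives the number of chains at each point and the dashed line marks equal numbers. Most circles lie below the line, and 79 chains lie above it.

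Many dense chains were broken up in the double-knockout list. The rule chose chains that were unbroken in the wild-type list, and 69.7% had a gap longer than 10 kb. Breaks in any second list, here also a shorter one, are thus partly built in. No count for smaller chains or for double-knockout dense chains is set beside these numbers. The double-knockout peaks of 491 dense chains (49.1%) lay in a single double-knockout chain under the same gap limit. Those of 385 chains (38.5%) lay in 2 and those of 122 (12.2%) in 3 or more, up to 5. In 331 of the 491, that single chain itself had 8 or more double-knockout peaks. The percentage in 1 piece was lower among larger chains, which also have more gaps. It was 54.8% of chains of 8 or 9 peaks, 49.3% of those with 10 or 11, 38.7% of those with 12 to 15, and 31.9% of those with 16 to 31. Of the 999 dense chains, 448 (44.8%) overlapped a dense chain of the double knockout, and 452 of the 715 double-knockout chains (63.2%) overlapped one of the wild type. Among the 263 that did not, 191 still had 4 to 7 wild-type peaks inside and 66 had 8 or more, spread over several wild-type chains.

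Per chain, the shared share was broad and spanned the whole range from 0 to 100%. Its median was 66.7% with quartiles of 54.5 and 77.8%. All wild-type peaks were shared in 31 chains, 50% or fewer in 222 and 25% or fewer in 22. In 705 chains (70.6%) there was at least 1 peak found only in the wild type and at least 1 found only in the double knockout, a count that grows with the number of peaks in a chain and was not set beside smaller chains. In all, 3541 wild-type peaks of dense chains had no overlapping double-knockout peak, and 1456 double-knockout peaks inside them had no overlapping wild-type peak.

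**Figure D3:**
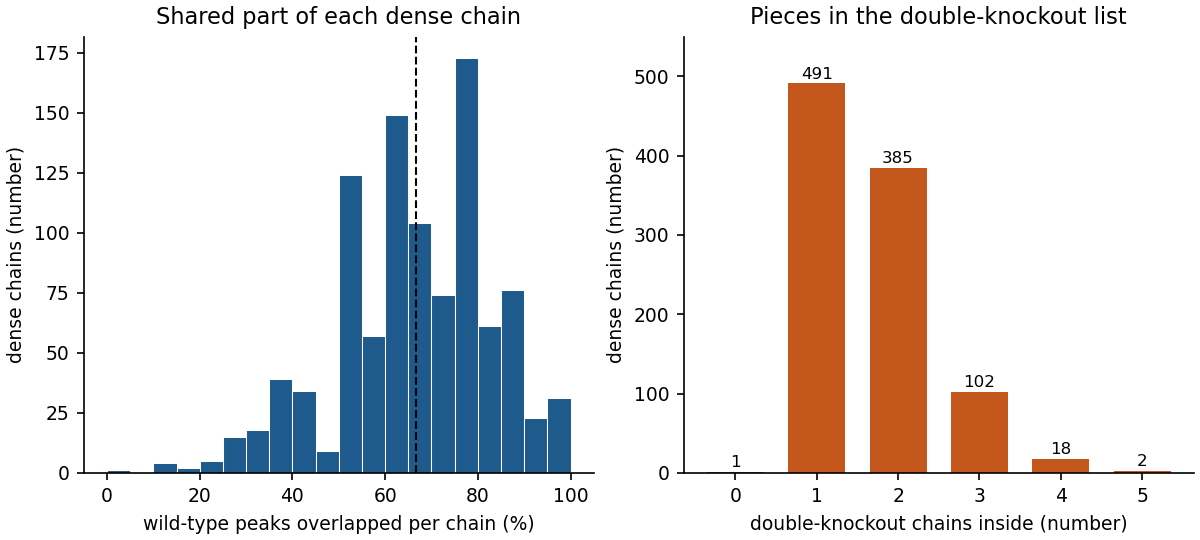
Left, number of dense chains by the percentage of their wild-type peaks overlapped by a double-knockout peak, in steps of 5 percentage points, with the median of 66.7% dashed; the uneven steps come from the small peak numbers per chain. Right, number of dense chains by the number of double-knockout chains that hold the double-knockout peaks inside them, with 491 in 1 piece.

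Among chains of 12 or more wild-type peaks, the lowest shared share was at chr10:119803281-119871709. It had 12 wild-type and 3 double-knockout peaks, and 16.7% of the wild-type peaks were shared. Its wild-type scores were low, from 3.07 to 11.8 with a median of 4.16. The pattern at chr15:72833857-72921236 was different. It had 14 wild-type and 6 double-knockout peaks and 28.6% shared, but its 4 shared peaks had a median score of 61.35 and the 10 others a median of 5.64. The 4 strongest wild-type peaks were thus the shared ones. They did not form a compact core, since they lay 19.7, 57.8, 64.2 and 87.3 kb from the chain's first base. Among the weaker peaks, a wild-type-only peak with a score of 5.91 lay beside an unshared double-knockout peak with a score of 3.4. The chain at chr8:122625165-122703311 had the same numbers, 14 and 6, with median scores of 27.5 for the 4 shared peaks and 4.545 for the rest. At chr7:35866155-35941727 there were 13 and 4 peaks, and at chr13:99896079-99977772 there were 13 and 7, each with 30.8% shared.

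The 5 chains with the largest wild-type surplus all had 9 more wild-type than double-knockout peaks. Besides the chr10 and chr7 chains just given, they were chr19:37563506-37640505 with 17 and 8 peaks, chr11:114734597-114806660 with 15 and 6, and chr7:143199549-143257604 with 11 and 2. All of the double-knockout peaks inside these last 3 were shared. In the chr7 chain of 11 the strongest wild-type peak, chr7:143257454-143257604, with a score of 21.8, had no overlapping double-knockout peak, and its 2 shared peaks had a highest score of 4.82. One chain of the 999 had no double-knockout peak at all. It was singled out for this after its values were seen: chr14:69937756-69966394, 28.6 kb long, with 8 wild-type peaks of scores from 4.93 to 39.4. Their median of 16.55 lay at percentile 78.7 of the wild-type list, so these were not weak peaks. The dense chain just before it, chr14:69854115-69903233, had 8 wild-type and 3 double-knockout peaks.

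At the other end, chr3:78998231-79057331 had 12 peaks in each list and every one was shared. Its wild-type scores ran from 8.76 to 30.3 and its double-knockout scores from 6.79 to 28.8. All 12 wild-type peaks were also shared at chr11:53244432-53310745, where the double knockout had 2 further peaks among its 14. High sharing did not need high scores. The chain at chr15:80368584-80469748 had 18 wild-type and 21 double-knockout peaks with 94.4% shared, although its median wild-type score was only 4.71, at percentile 22.6. The chain at chr10:79594298-79689432 had 14 and 15 peaks with 92.9% shared and a median score of 25.3, and chr14:20770205-20825672 had 12 and 14 with 91.7% shared and a median score of 9.64.

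The largest double-knockout surplus was at chr5:33972218-34038215, with 9 wild-type peaks, all shared, and 14 double-knockout peaks. Of the 5 extra peaks the strongest, chr5:34000598-34000748, scored 57.9 and ranked at percentile 96.8. It lay beside a shared wild-type peak, chr5:34000973-34001123. The median score of the 5 was 6.05. The next were chr7:117333675-117430621 with 16 and 20 peaks and chr17:35862645-35903623 with 9 and 13. Their extra peaks were weaker, with highest scores of 13.0 and 8.49. The chr14 chain of 31 peaks and the chr13 chain of 26 had a surplus of 3 each.

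The chains with the highest median scores had 8 to 10 wild-type peaks. At chr7:27944961-27981278 there were 8 peaks in each list, all shared. The median wild-type score was 43.8 and the median double-knockout score 49.25. The median percentiles within the own list were 95.9 and 94.9. The chain at chr6:117829207-117867063 had 8 and 7 peaks with 87.5% shared, and chr1:72258826-72301909 had 9 and 8 with 88.9% shared. At chr10:127962032-128027518, with 10 and 9 peaks, the strongest wild-type peak, chr10:128003296-128003446, with a score of 72.0, was not shared. The strongest peak found only in the double knockout, chr10:128003026-128003176, with a score of 80.2, lay just beside it, and the 2 did not overlap. At chr3:90017516-90070489 there were 9 peaks in each list and 66.7% shared.

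Over all dense chains, 6865 of the 10406 wild-type peaks overlapped a double-knockout peak, or 66.0% (65.1 to 66.9%). Over all autosomal wild-type peaks the share was 60.9%. It was 58.8% (58.4 to 59.2%) in sparse chains, a difference of 7.16 percentage points (6.15 to 8.17), and 63.0% in chains of 4 to 7. The share was 57.3% for lone peaks and 68.6% (66.1 to 71.1%) for chains of 16 to 31. Background overlap was higher in dense than in sparse chains and far below these shares: after the double-knockout list was moved by 10 kb to either side, 3.35 and 3.77% of dense and 0.892 and 0.860% of sparse wild-type peaks overlapped it. This background contrast was not negligible beside the difference of 7.16 points, which was not corrected for it. The difference fell to 2.20 points when the wild-type list was cut to its strongest peaks so that both lists were equally long, and to 3.26 points (-4.51 to 11.03) for the 17 chains left at a gap limit of 6 kb.

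The order turned round in the double-knockout list. Of the peaks in its 715 dense chains 71.9% (70.8 to 72.9%) overlapped a wild-type peak, against 75.9% in its sparse chains and 74.7% over all its autosomal peaks. The difference, dense minus sparse, was -4.07 percentage points (-5.18 to -2.95). In this list the share was highest for lone peaks, at 79.0%. Whether peaks of dense chains were shared more or less often than others thus depended on which library's list defined the chains. With equally long lists the difference was -1.50 points.

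**Figure D4:**
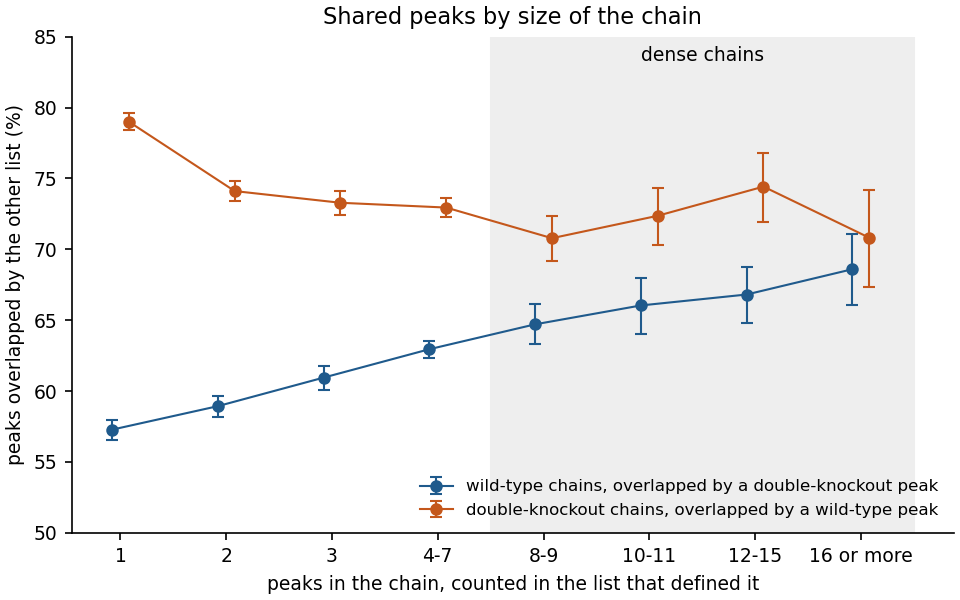
Percentage of peaks overlapped by a peak of the other list, by the number of peaks in the chain, for chains built from the wild-type list (blue) and from the double-knockout list (orange); bars are exact 95% intervals for counting error. The blue points rise from 57.3% for lone peaks to 68.6% for the largest chains, and the orange points start at 79.0% and stay between 70.8 and 74.4% in the shaded dense chains.

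Peak score moved with both chain size and sharing. The median score was 9.75 in dense and 7.34 in sparse wild-type chains, at percentiles 59.4 and 45.7 of the list. Shared peaks of dense chains had a median score of 11.8 and those found only in the wild type 6.57. When dense and sparse peaks were compared within deciles of the wild-type score, the mean difference was -0.0930 percentage points (-1.02 to 0.837). It did not have 1 sign along the scale. In the weakest decile 28.6% of dense and 22.0% of sparse peaks were shared, and in the ninth 83.8% and 87.7%. That mean also depended on the processing, from -4.87 points (-11.6 to 1.86) at a gap limit of 6 kb to 5.25 points when only the strongest 50% of each list was used. In the double-knockout list dense peaks were shared less often than sparse peaks in all 10 deciles, with a mean difference of -8.22 points (-9.26 to -7.17).

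**Figure D5:**
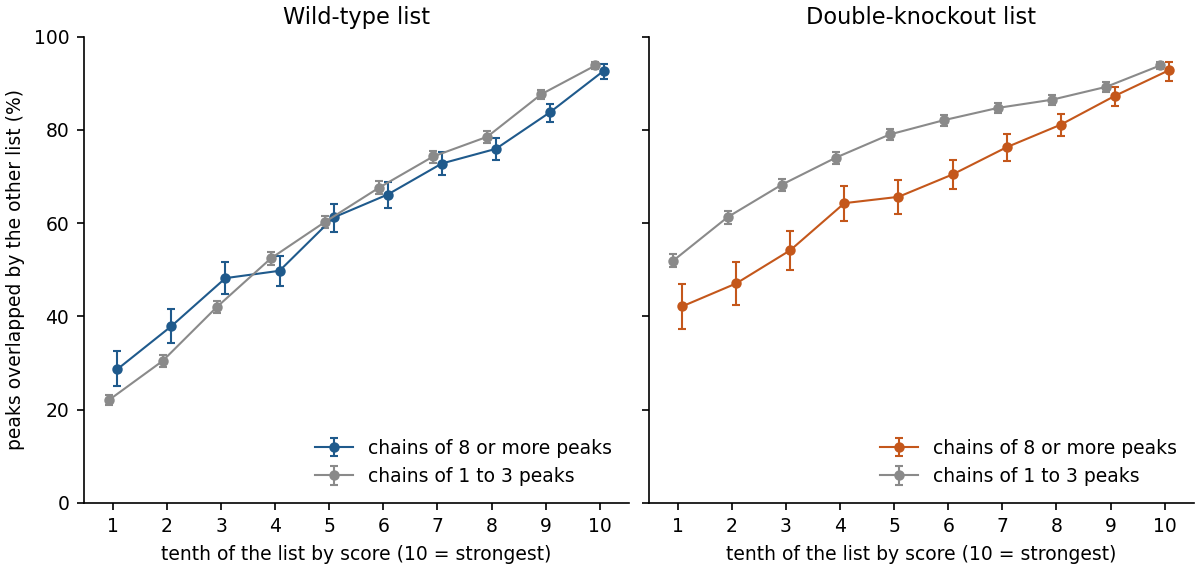
Percentage of peaks overlapped by the other list in each decile of the score, for chains of 8 or more peaks (coloured) and of 1 to 3 peaks (grey), in the wild-type list (left) and the double-knockout list (right); bars are exact 95% intervals. On the left the curves cross, with dense peaks at 28.6% and sparse at 22.0% in the weakest decile. On the right the dense curve lies below the sparse one throughout.

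Score also ordered the dense chains among themselves. In 4 groups of chains of rising median wild-type score, 57.4, 63.7, 68.6 and 73.7% of wild-type peaks were shared, and double-knockout peaks per wild-type peak came to 0.697, 0.770, 0.827 and 0.880. Spacing gave no such order of the shares: in 4 groups of rising peak density they were 65.0, 66.3, 66.8 and 65.7%. Double-knockout peaks per wild-type peak fell slightly over these groups, at 0.815, 0.806, 0.789 and 0.768. Across the 999 chains, which share both libraries, Spearman's rho of the shared share was 0.378 with median score, 0.0843 with peak number, 0.0503 with length and -0.00384 with density, given as descriptions.

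Within chains the shares of the strongest and weakest peaks were set beside those of dense-chain peaks in the score decile holding their median. Scores of both groups also spread outside that decile, so the shares are not matched by score. The strongest peak was shared in 899 of 999 chains (90.0%), with a median score of 30.1, and the weakest in 376 (37.6%), with a median score of 3.94. Over all peaks of dense chains, 92.8% were shared in the top score decile and 37.9% in the second lowest, which spans scores of 3.72 to 4.49. These deciles include strongest and weakest peaks themselves, so a near match is partly built in. Ends and interior were close: 67.3% (65.2 to 69.4%) of first and last peaks and 65.7% (64.6 to 66.7%) of interior peaks were shared. A peak that followed a shared neighbour was shared in 66.9% of cases (65.7 to 68.1%) and one that followed a wild-type-only neighbour in 63.5% (61.8 to 65.1%). The median scores of these groups were 10.1 and 9.2. Below the median score of dense-chain peaks the shares were 52.0 and 48.6%, and at or above it 80.4 and 80.2%. By distance, the contrast was widest for neighbours within 1 kb, at 70.7 and 59.9%, and had the other sign at gaps of 1 to 3 kb, at 60.5 and 63.1%.

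Part of the unshared signal lay beside a peak of the other list. Of the 3541 peaks of dense chains found only in the wild type, 776 (21.9%) had a double-knockout peak within 500 bp, against 14.3% in sparse chains. Of the 1456 found only in the double knockout, 772 (53.0%) had a wild-type peak within 500 bp. No background was counted for this window. With the double-knockout list moved by 10 kb, overlap was 3.35 and 3.77% in dense and 0.892 and 0.860% in sparse chains. A higher near-miss share in dense than in sparse chains is thus partly built in. With near misses within 500 bp set aside, 2765 wild-type peaks (26.6%) and 684 double-knockout peaks (8.27%) inside dense chains had no counterpart. The stretches were chosen for many wild-type peaks, so a larger wild-type number is partly built in. In dense chains chosen on the double-knockout list, 82.09% of double-knockout peaks had a wild-type peak overlapping or within 500 bp. For wild-type peaks of wild-type dense chains the matching share was 73.43%. The double-knockout-only peaks inside wild-type dense chains had a median score of 7.96, near the middle of their list at percentile 49.6. Shared double-knockout peaks there had a median of 11.4.

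Dense chains were found on every autosome, from 25 on chromosome 19 to 88 on chromosome 11. They took the largest part of the wild-type peaks on chromosomes 7 (17.2%) and 15 (17.1%) and the smallest on chromosomes 13 and 16 (9.30% each). The shared share in dense chains ran from 63.2% on chromosome 13 to 70.3% on chromosome 19. It was above that of sparse chains on 19 of 19 autosomes, by 2.90 percentage points on chromosome 9 and up to 11.5 on chromosome 18. These differences were not matched by score or corrected for background overlap, and all autosomes came from the same 2 libraries. With score matching, the difference over all autosomes was -0.0930 points. In chains chosen on the double-knockout list, the unmatched difference over all autosomes was -4.07 points.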

How the data were processed

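The data were ATAC-seq peak lists of 2 libraries, 1 wild-type and 1 double-knockout, with samples grouped by the genotype in the labels. Per the submitters' processing notes, bcl2fastq 1.8.4, Bowtie, HOMER and the mm9 build were used. Peak calling thresholds, treatment of duplicate reads and any shift of read ends are settings not given in the sources used here, and could change the number and position of peaks. The score the authors deposited with each peak has no stated unit and ranked peaks within a list only.

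Peaks were chained across gaps of up to 12.5 kb, sharing meant an overlap of at least 1 bp, and a peak lay inside a chain if its centre did. Shares carry exact Clopper-Pearson 95% intervals; differences carry normal-approximation intervals, and the ratio of peak numbers an interval for counting error. Score-matched differences weight the 10 score deciles by the peaks of dense chains. The chains named are the 10 with most wild-type peaks, and 5 each by summed score, length, lowest and highest shared share (12 or more peaks), largest and smallest double-knockout minus wild-type number, and median score. Members, lists and rules were chosen with earlier results of these data known. Other settings numbered 10, and 2 more were added after seeing the data. The chaining and overlap steps were tested on simulated data and checked against bedtools 2.31.1. Python 3.11.15, NumPy 2.4.6, pandas 2.3.3, SciPy 1.17.1 and Matplotlib 3.10.9 were used. The planned count of E-box sequences was not run, because no mm9 sequence was used here.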

Additional observations from a re-analysis of the deposited data

How the results depend on the processing

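No paired analysis was possible because each genotype had 1 library, so leaving out a replicate was not possible either. The planned E-box count was not run. In every alternative run the dense minus sparse difference was above 0 in the wild-type and below 0 in the double-knockout list, but at a gap of 6 kb both intervals included 0. The score-matched wild-type difference changed sign. The cause was not tested. Values that moved follow, with differences in percentage points. A gap of 6 kb left 17 dense chains (14 double-knockout), shares of 63.95 and 67.21%, differences of 3.256 (-4.51 to 11.03) and -8.022 (-16.4 to 0.315), score-matched -4.873 and -12.68, 35.29% of chains with 8 or more double-knockout peaks and a ratio of double-knockout to wild-type peaks of 0.7143. A gap of 25 kb gave 2826 and 2151 chains, shares of 64.29 and 73.6%, differences of 8.893 and -2.818, a score-matched wild-type difference of 0.8756 and 70.24% of chains with 8 or more double-knockout peaks. A minimum of 6 peaks gave 2367 and 1647 chains. A minimum of 12 gave 245 and 136, shares of 67.48 and 73.13%, differences of 8.672 and -2.787, and a ratio of 0.8199. Requiring 50% overlap gave shares of 62.17 and 67.5% and a wild-type difference of 6.127. Counting peaks within 500 bp gave shares of 73.43 and 82.09%, differences of 8.738 and -2.179, and score-matched 1.044 and -6.391. Lists of equal length gave 629 chains, shares of 70.26 and 67.52%, differences of 2.201 and -1.498, a score-matched wild-type difference of -1.978, 60.25% with 8 or more double-knockout peaks and a ratio of 0.8532. The strongest 50% of each list gave 162 and 117 chains, a wild-type share of 67.78%, score-matched 5.25 and -6.853, and 41.98% with 8 or more double-knockout peaks. Merging close peaks gave shares of 66.99 and 75.11% and 48.59% with 8 or more double-knockout peaks. It also left fewer dense chains, 852 and 549, although these numbers were not counted as moved. Weighting chains equally, added after seeing the data, gave a double-knockout difference of -5.28. Using 20 score bins, also added then, and including the X chromosome moved no result. The unknown depth limits all counts of peaks found in 1 list only.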

Other observations

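The X chromosome was outside the rule. The same chaining gave 3 wild-type chains of 8 or more peaks there, with 9, 8 and 8 wild-type peaks and 6, 7 and 5 double-knockout peaks inside. The double-knockout list gave 4. The largest, chrX:47890415-47988681, held 27 double-knockout and 4 wild-type peaks. Another, chrX:72975237-73009866, held 9 double-knockout peaks and no wild-type peak. The remaining pair held 9 and 8 double-knockout peaks with 6 wild-type peaks each. The wild-type list had 10 peaks on the Y chromosome and the double-knockout list 0. Sex of the animals and genotype thus cannot be told apart, on the X chromosome or on the autosomes.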
